A study of Rattus norvegicus with 15 samples.

Results

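The comparison described here sets rat sciatic nerve taken 7 days after injury against uninjured nerve, over the miRNAs that a 1-colour Agilent array detected in either condition. The day 0 group is normal nerve of adult male rats and holds 3 arrays. The day 7 group is nerve from the injury site of adult male rats and also holds 3 arrays, among 15 arrays that include days 1, 4 and 14. The labels give no strain, and they describe the injury in different ways, as a crush in the treatment protocol and as a resection in the design text, with the tissue called both the injury site and the proximal stump. Members were the miRNAs that the scanner software reported as detected on all 3 arrays of day 0 or on all 3 arrays of day 7, which gave 221 of the 350 miRNAs on the array. Of these, all but 25 were detected on all 6 arrays, 23 on all day 7 arrays but not on all day 0 arrays, and 2 on all day 0 arrays but not on all day 7 arrays. No label says whether the 3 samples of a group came from separate animals, so every p-value below measures only the spread between these samples, which may be technical.

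A miRNA guides Argonaute to messenger RNAs that pair with its seed, the stretch of bases 2 to 8 from the 5′ end, so miRNAs with one seed share many targets. Each hairpin precursor gives a 5′ and a 3′ arm, and an asterisk in the older names used on this array marks the arm that was taken as the minor one. Injured peripheral nerve is known for Schwann cells that leave the myelinating state, for the entry of neutrophils and macrophages, and for growth of fibroblasts and vessels, and each of these cell types has miRNAs of its own. Because the RNA came from whole tissue, fewer cells of a type and less of a miRNA per cell cannot be told apart.

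The mature sequences of the members that the comparison turns on were taken from RefSeq (rat assembly GRCr8), in which 185 of the 221 members were matched by name. They are written 5′ to 3′ with the seed in capitals. The first set holds members with large changes, namely miR-31, miR-21, miR-132, miR-221, miR-222 and miR-142-3p among the rises and miR-33, miR-138, miR-338, miR-100 and miR-26b among the falls. miR-221 and miR-222 carry one seed between them.
miR-31: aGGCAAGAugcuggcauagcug
miR-21: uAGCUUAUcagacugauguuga
miR-132: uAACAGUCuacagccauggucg
miR-221: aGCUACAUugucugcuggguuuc
miR-222: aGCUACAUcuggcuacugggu
miR-142-3p: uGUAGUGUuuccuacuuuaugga
miR-33: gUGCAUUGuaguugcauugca
miR-138: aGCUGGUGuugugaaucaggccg
miR-338: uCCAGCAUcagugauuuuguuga
miR-100: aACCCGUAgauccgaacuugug
miR-26b: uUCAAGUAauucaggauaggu

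The second set is shown because it holds members that share all 7 seed bases and yet differed on day 7. It covers the miR-17, miR-25 and miR-92, miR-15/16, miR-125, miR-34, miR-130, miR-132 and miR-146 seeds.
miR-20a: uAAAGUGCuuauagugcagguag
miR-93: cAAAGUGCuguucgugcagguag
miR-17-5p: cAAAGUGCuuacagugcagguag
miR-106b: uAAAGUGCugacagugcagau
miR-20b-5p: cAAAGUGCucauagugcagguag
miR-92a: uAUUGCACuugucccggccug
miR-25: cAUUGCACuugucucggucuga
miR-363: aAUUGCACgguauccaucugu
miR-32: uAUUGCACauuacuaaguugca
miR-15b: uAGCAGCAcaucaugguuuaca
miR-322: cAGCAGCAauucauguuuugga
miR-16: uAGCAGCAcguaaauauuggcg
miR-497: cAGCAGCAcacugugguuugua
miR-195: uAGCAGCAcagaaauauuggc
miR-351: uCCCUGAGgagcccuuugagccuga
miR-125a-5p: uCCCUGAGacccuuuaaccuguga
miR-125b-5p: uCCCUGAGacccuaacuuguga
miR-34c: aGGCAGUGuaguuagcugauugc
miR-34b: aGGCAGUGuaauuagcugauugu
miR-34a: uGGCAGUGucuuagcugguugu
miR-130b: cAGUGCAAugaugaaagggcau
miR-130a: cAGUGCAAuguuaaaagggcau
miR-212: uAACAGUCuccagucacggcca
miR-146b: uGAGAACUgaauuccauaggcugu
miR-146a: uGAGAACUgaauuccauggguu

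A level below is the log2 of a miRNA's mean intensity divided by the 75th percentile of its array, computed from those that all 15 arrays detected, so a level of 0 is that percentile and -8.11 is the floor. The 6 arrays each detected 200 to 234 miRNAs, held 2.7% to 4.17% outlier spots and had no saturated spots. The day 0 arrays were alone on their slide and scan day, so slide, scan day and injury cannot be told apart in this comparison. The day 0 arrays also differed more among themselves: the standard deviation was larger on day 0 than on day 7 for all but 25 of the 221 members, with a median of 0.16 against 0.06. The choice of scaling moved the zero line. The median log2 change over the 231 miRNAs tested was -0.32 with the scaling used here, against 0.04 when the 75th percentile was taken over all miRNAs, so weight is given below to calls made in one direction under each of 5 scalings (both percentiles, quantile, no scaling and the deposited values).

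Day 7 nerve differed from uninjured nerve in most of what the array detected. Of the 231 miRNAs tested, 17.3% were called higher and 45.5% lower at a limma adjusted p under 0.05, and the 3 arrays of one group lay beyond all 3 of the other for 74.9%. Among the 221 members 39 were called higher and 104 lower, which is the background itself, since the members are nearly all of the miRNAs tested. With the median change of the members on all 6 arrays set to 0, an alternative added after the data were seen, the 231 tested split into 83 higher and 61 lower, 35.9% and 26.4%. The split was 82 and 63 with the percentile over all miRNAs, 59 and 74 with quantile scaling and 55 and 61 with the deposited values. It was 54 and 70 with the percentile over the members on all 6 arrays, and 56 and 87 with day 14 replicate 3 left out of scaling and fit. That array detected 172 miRNAs and stood apart from the rest, and leaving it out of the fit alone gave 42 and 109. Calls that did not depend on the scaling numbered 37 higher (16% of those tested) and 48 lower (20.8%), with median folds of 1.77 and 1.82. With the scaling used here, all but 7 of these 85 calls also remained when any 1 of the 6 arrays was left out. The other scalings were not refitted in this way. Of the members on all 6 arrays, 29 were higher and 47 lower under every scaling, and their median change was -0.36.

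**Figure D1:**
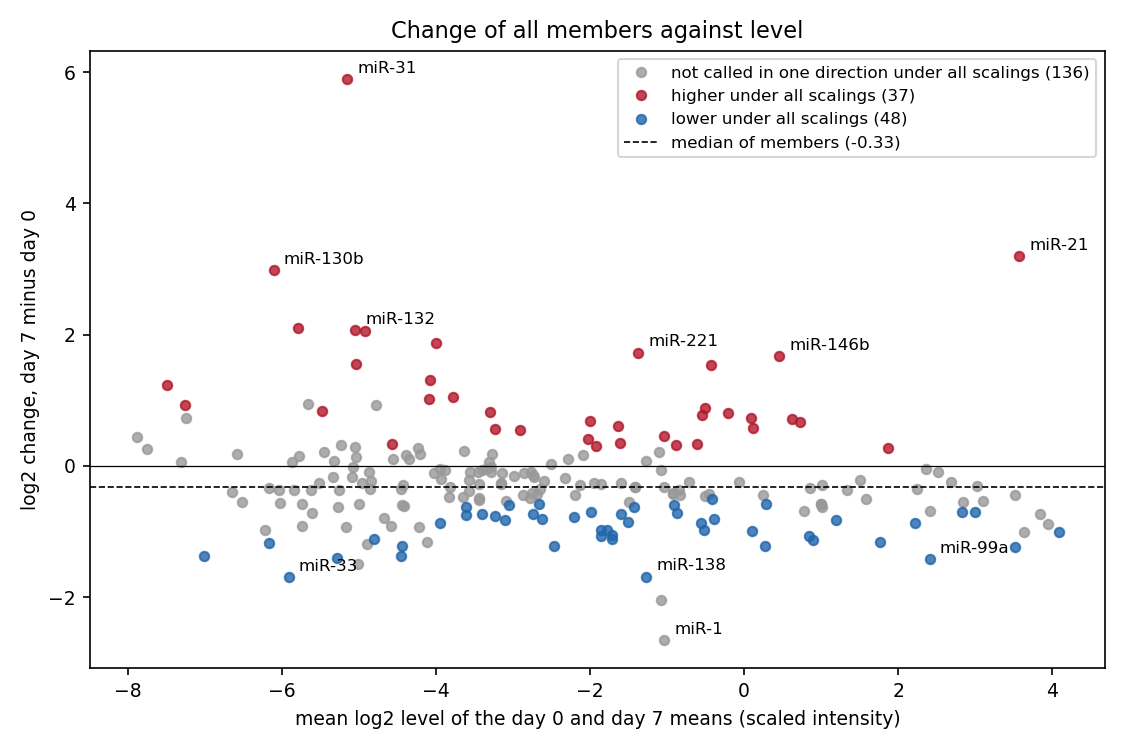
Log2 change of each of the 221 members (vertical axis, day 7 minus day 0) against the mean of its day 0 and day 7 log2 levels (horizontal axis); each point is 1 miRNA, red and blue points were called higher (37) or lower (48) under every scaling, and the dashed line is the members' median change of -0.33. The plotted value of miR-31 is 5.90, with its day 0 arrays all at the floor, and the lowest of the falls called under every scaling is -1.69.

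Among the strongest rises were miRNAs known to be induced by growth signals and injury. On day 0 miR-21, which is induced in many injured tissues and represses Pdcd4, stood at 1.82, 2.04 and 2.07, and on day 7 at 5.15, 5.23 and 5.13. The rise was 3.19 ± 0.12 (SE) on the log2 scale, or 9.13-fold (limma, adjusted p = 6.75e-11). All 3 day 7 arrays lay far above the day 0 arrays, and miR-21 took 15.1% to 16.1% of the summed miRNA signal of those arrays against 1.26% to 1.34% on day 0. miR-31 was not detected on any day 0 array and reached -2.30, -2.15 and -2.19 on day 7, at least 40.2-fold higher (adjusted p = 5.79e-13). Such bounds set the day 7 mean against the highest, on each day 0 array, of the floor, the lowest detected signal and the miRNA's own signal. Where a miRNA's own signal was the highest throughout, the fitted fold is given instead. No bound allows for the spread between arrays.

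miR-221 and its neighbour miR-222, both repressors of Cdkn1b, a brake on the cell cycle, lie side by side on chromosome X (GRCr8 chrX:6022682-6023268) and rose together. The levels of miR-221 were -2.37, -2.17 and -2.19 on day 0 against -0.49, -0.53 and -0.53 on day 7, a rise of 1.73 ± 0.10 (adjusted p = 9.73e-09). Those of miR-222 were -5.27, -4.82 and -4.73 against -3.06, -3.08 and -3.08, a rise of 1.87 ± 0.19 (adjusted p = 2.2e-06). For both, no day 7 array came near a day 0 array. miR-132, a miRNA induced by CREB that acts in axon and vessel growth, was undetected on day 0. It stood at -4.13, -3.94 and -3.99 on day 7, 4.20-fold higher by the fit (limma, adjusted p = 4.06e-09). Its neighbour miR-212, from the same stretch of chromosome 10 (GRCr8 chr10:60521811-60522112) and with the same seed, was at -3.98, -3.98 and -3.63 on day 0 and at -3.90, -3.84 and -4.02 on day 7, so its groups overlapped (-0.06 ± 0.27). Of the 7 members listed as growth and injury miRNAs, miR-31, miR-132 and miR-21* were detected on no day 0 array and entered through day 7, so their calls say nothing of the list. Of the 4 detected on all 6 arrays, miR-21, miR-221 and miR-222 rose under every scaling and miR-212 was not called. The median change of these 4 was 1.80, beside -0.36 over all members on all 6 arrays.

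**Figure D2:**
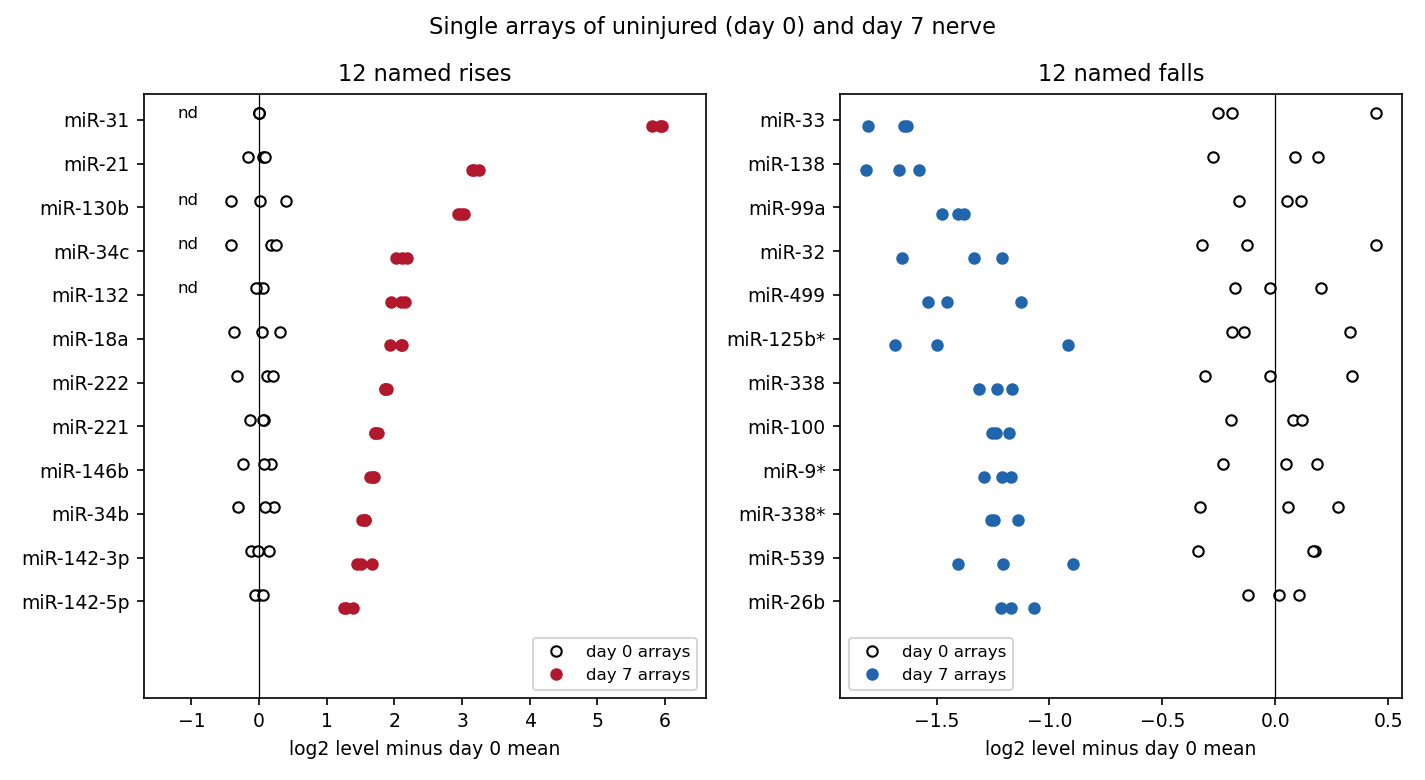
Log2 level of each single array minus the miRNA's day 0 mean for the 12 named rises (left) and 12 named falls (right); open circles are the 3 day 0 arrays, filled circles the 3 day 7 arrays, and nd marks miRNAs detected on no day 0 array. In all 24 miRNAs the filled and the open circles are apart because the rule that chose them required it, and the 3 day 7 arrays of most rises nearly coincide.

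Rises of like size were those of members of the miR-34 family, which p53 induces, and of the miR-130 and miR-301 family. miR-34c and miR-34b, the products of 1 short transcript on chromosome 8 (GRCr8 chr8:60306133-60306679, inside the interval annotated as Hoatz), both rose. miR-34c went from undetected to -4.74, -4.66 and -4.83, 4.30-fold higher by the fit (limma, adjusted p = 8.04e-08). miR-34b, detected on 2 of 3 day 0 arrays, went from -6.13, -5.60 and -5.73 to -4.26, -4.25 and -4.29, a rise of 1.55 ± 0.15 (adjusted p = 2.06e-06). The third member of the family, miR-34a, has the same seed but a gene of its own on chromosome 5. It stood at 1.04, 1.12 and 1.31 on day 0 and at 0.90, 0.87 and 0.84 on day 7, a difference of -0.29 ± 0.13 that missed the threshold (adjusted p = 0.0688) and turned positive under 4 other settings. Set against miR-34a on the same array, miR-34c gained 2.39 (SD 0.27 on day 0 and 0.08 on day 7), against 1.92 with quantile scaling and 4.21 with the deposited values. miR-130b, a repressor of Pparg, was undetected on day 0 and at -4.66, -4.63 and -4.57 on day 7, at least 6.95-fold higher (adjusted p = 9.94e-09). Its paralogs did not follow: miR-130a was at 1.28, 1.55 and 1.72 against 1.16, 1.16 and 1.14 (-0.36 ± 0.12), a call that was lost or turned in sign under other scalings, and miR-301a fell under every scaling (-0.85 ± 0.16, adjusted p = 0.000359).

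miRNAs of blood-borne leukocytes changed in both directions. Both arms of miR-142, which is made almost only in blood cells, rose. Its 3p arm was at -1.32, -1.05 and -1.22 on day 0 and at 0.32, 0.47 and 0.25 on day 7, a rise of 1.54 ± 0.13 (2.92-fold, adjusted p = 4.56e-07), and its 5p arm rose by 1.31 ± 0.14. The myeloid miR-223, abundant in neutrophils, stood at -0.76, -0.48 and -0.59 against 0.15, 0.26 and 0.17, a rise of 0.80 ± 0.16 (adjusted p = 0.000742). miR-150, which marks mature lymphocytes, fell from -1.36, -1.13 and -1.21 to -2.00, -1.92 and -1.98, by 0.73 on the log2 scale (SE 0.11, adjusted p = 8.09e-05). These 4 calls held under every scaling, and miR-342-3p, found in several leukocyte lineages, was not called (0.16 ± 0.11). Within single arrays the difference between miR-223 and miR-150 moved by 1.53, from 0.60, 0.65 and 0.62 to 2.14, 2.17 and 2.14. The groups for this difference were far apart beside standard deviations of 0.02 on both days.

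The paralogs miR-146a and miR-146b, which are both induced by NF-kB signalling and both repress Traf6 and Irak1, parted ways. miR-146b was at -0.62, -0.21 and -0.31 on day 0 and at 1.26, 1.32 and 1.30 on day 7, a rise of 1.68 ± 0.13 (3.20-fold, adjusted p = 1.84e-07). miR-146a, with the same seed, was at -0.37, -0.21 and -0.16 against -0.50, -0.69 and -0.82. Its fall by 0.42 on the log2 scale passed the test with the scaling used here (adjusted p = 0.00168) but not under 4 others. The difference between the 2 paralogs on one array rose by 2.10 and did not overlap between the days. miR-146b lies on chromosome 1 and miR-146a on chromosome 10, so the 2 come from separate genes.

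The miR-17 to miR-92 cluster, a transcript that MYC and E2F induce and that promotes proliferation, was higher throughout. All 6 of its mature miRNAs on the array that were members (miR-17-5p, miR-18a, miR-19a, miR-20a, miR-19b and miR-92a; GRCr8 chr15:98587861-98588622) were called higher under every scaling that measured them (the deposited values lack miR-17-5p). Of all miRNAs tested, 16% were higher under every scaling. miR-18a entered through its day 7 detection, so its call adds nothing to this count, while the others were detected on every day 0 and day 7 array. miR-17-5p, miR-19b and miR-92a are also encoded by the copy on chromosome X in RefSeq. miR-18a was detected on 1 day 0 array and went from -5.63, -5.90 and -6.31 to -4.02, -3.83 and -3.85, a rise of 2.05 ± 0.16 (adjusted p = 1.84e-07). miR-20a went from -1.08, -0.80 and -0.93 to -0.24, -0.13 and -0.12, a rise of 0.77 ± 0.11 (adjusted p = 4.13e-05). miR-19a and miR-19b rose by 1.04 ± 0.15 and 0.89 ± 0.10. The rise of miR-92a was the smallest of the 6 (0.32 ± 0.12, adjusted p = 0.0363) and was not called without day 0 replicate 1, day 0 replicate 3 or any of the day 7 replicates (0.27 to 0.34). In the related cluster inside Mcm7, which encodes a helicase subunit of replicating cells, miR-93 and miR-106b rose by 0.69 ± 0.13 and 0.46 ± 0.11, and miR-25 was not called (0.21 ± 0.13).

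The third copy of this gene family, on chromosome X (GRCr8 chrX:137342788-137343637), gave lower levels where its products can be told from the others by sequence. miR-20b-5p, whose printed sequence differs from miR-17-5p only outside the seed, fell from -3.57, -3.25 and -3.09 to -3.87, -4.03 and -3.89, by 0.63 on the log2 scale (SE 0.15, adjusted p = 0.0022), under every scaling. miR-363 of the same stretch was lower with the scaling used here (-0.43 ± 0.14), though not under every scaling. On single arrays the difference between miR-20a and miR-20b-5p went from 2.49, 2.46 and 2.17 to 3.64, 3.90 and 3.77, a gain of 1.40 with no overlap. Probes for such near-identical miRNAs can share signal, and how far they do was not tested.

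Members with one seed changed in the same direction in some families and in opposite directions in others. The 185 members with a sequence carried 137 seeds, and 26 seeds were shared by at least 2 members (74 members in all). Of these 26 families, 7 held called members of both directions, beside 62.8% of all miRNAs tested that were called in either direction. In 3 families calls of both directions held under every scaling, namely the miR-17 seed, the miR-25 and miR-92 seed and the miR-125 seed. The miR-125 seed counts here only through miR-351, and the miR-130 seed counts among the 7 only through miR-130b. Both miRNAs were detected on no day 0 array and entered through day 7, so these 2 families add nothing to the counts. In the miR-25 and miR-92 family, miR-32, which lies inside Tmem245 on chromosome 5, fell from -4.91, -4.71 and -4.14 to -5.92, -5.80 and -6.24 (-1.40 ± 0.21, adjusted p = 5.64e-05) beside the small rise of miR-92a. In the miR-125 family, miR-125b-5p fell by 1.00 on the log2 scale (SE 0.14), miR-125a-5p was not called (-0.25 ± 0.11), and miR-351 was detected on no day 0 array and on all 3 day 7 arrays, where it stood at -6.99, -6.70 and -6.70 beside day 0 values of -8.11, -6.94 and -8.11. Its groups thus overlapped slightly although the fit called it higher (at least 1.65-fold, adjusted p = 0.00343), and its change was -0.05 with the normexp background. Among sets that moved as one were the miR-19 seed, the miR-221 seed and, downward, the miR-103 and miR-107 seed (miR-103 by -1.13 ± 0.15 and miR-107 by -1.06 ± 0.12), both of which lie in pantothenate kinase genes.

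**Figure D3:**
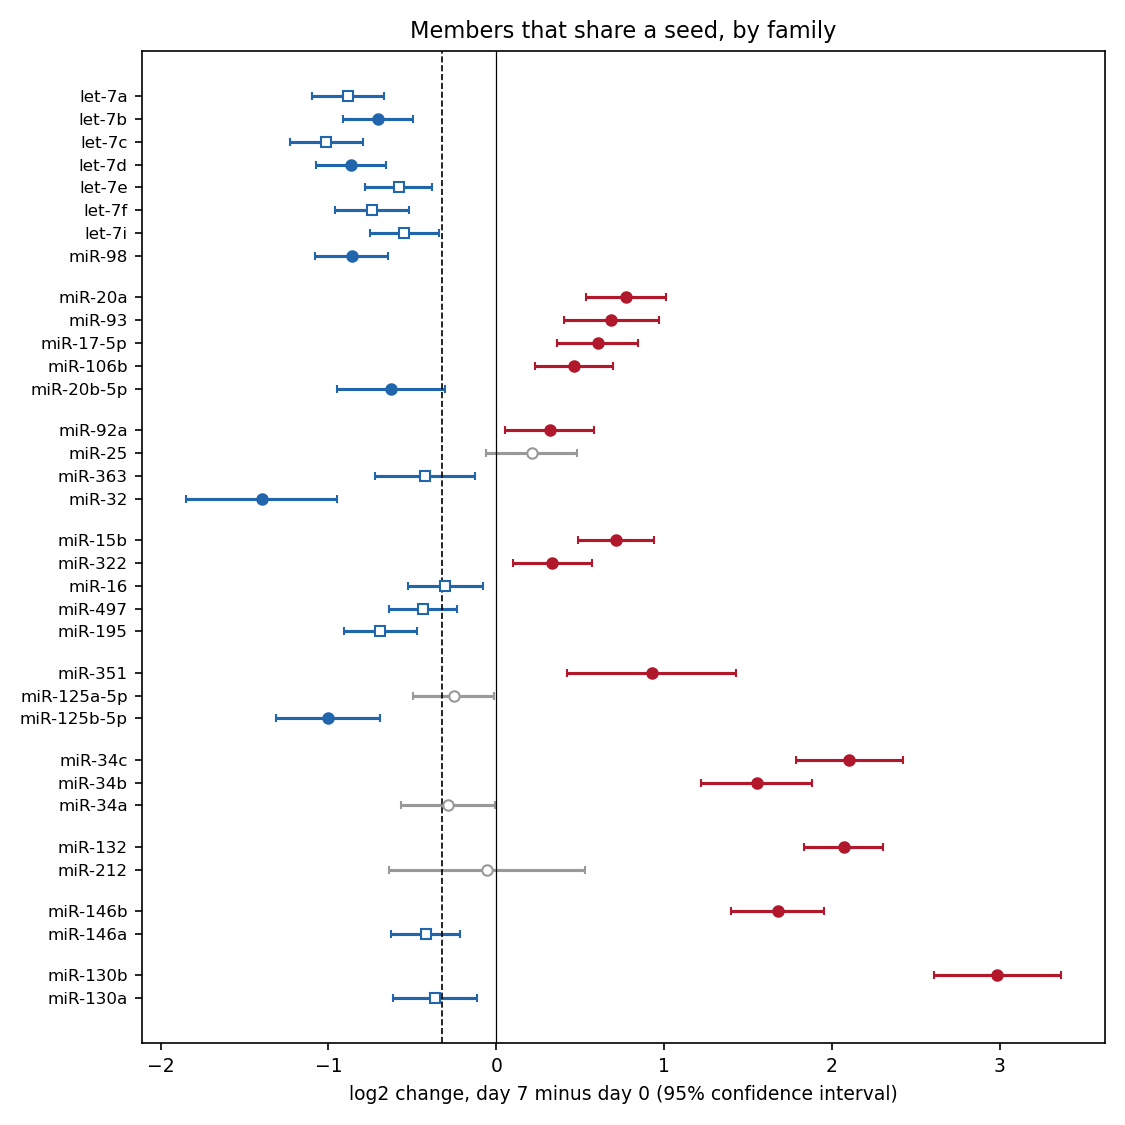
Log2 change of members that share a seed, by family, with 95% confidence intervals of the limma fit; red was called higher, blue lower and grey not called, filled symbols held under every scaling, and the dashed line marks the median change of -0.32 over all miRNAs tested. The let-7 members form one block between -1.01 and -0.55, while the families of miR-17, miR-25 and miR-92, miR-15/16, miR-125, miR-146 and miR-130 are spread over both sides of the line.

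The members of the miR-15/16 seed, which restrains cyclins, differed, even between products of 1 transcript. miR-15b and miR-16 are made from 1 transcript inside Smc4 (GRCr8 chr2:155555197-155555364), a condensin gene of dividing cells. miR-15b rose from 0.27, 0.37 and 0.17 to 0.92, 1.02 and 1.00 (0.71 ± 0.10, adjusted p = 4.68e-05), whereas miR-16 was at 3.01, 3.28 and 3.25 against 2.83, 2.91 and 2.89 (-0.30 ± 0.10), a difference that turned positive under 3 of the other 4 scalings. miR-195 and miR-497, from 1 transcript on chromosome 10, were lower by 0.69 and 0.44 on the log2 scale, also not under every scaling. On chromosome X, 7 members lie in 1 cluster (GRCr8 chrX:137720985-137726219). None was called lower, and miR-503, miR-542-3p, miR-322 and miR-351 were called higher under every scaling, as were 16% of all miRNAs tested. miR-351 was detected on no day 0 array and entered through day 7, so its call adds nothing to this count. miR-503, miR-542-3p and miR-322 rose by 0.82 ± 0.13, 0.55 ± 0.14 and 0.33 ± 0.11. The call of miR-322 was lost without day 0 replicate 1 or day 7 replicate 2 (0.27 and 0.29).

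Fibroblast and matrix miRNAs gave a mixed picture. miR-214 and miR-199a-5p, which are made from 1 transcript in mesenchymal cells, rose by 0.73 ± 0.10 and 0.58 ± 0.11 (adjusted p = 3.61e-05 and 0.000458). The smooth muscle pair miR-143 and miR-145 was lower by 0.50 and 0.60 on the log2 scale, of which the fall of miR-145 held under every scaling. miR-29b, a repressor of collagen genes, rose from 0.24, 0.24 and 0.68 to 1.06, 1.06 and 1.03 (0.66 ± 0.11, adjusted p = 0.000201). miR-29a was called higher as well (0.28 ± 0.11, adjusted p = 0.0349), but this call was lost without day 0 replicate 1 or 2 or any of the day 7 replicates (0.22 to 0.29). miR-29c, with the same seed, was not called (-0.25 ± 0.12), and its minor arm miR-29c* was lower (-0.58 ± 0.13), though not under every scaling. The minor arm miR-29a* was not called. Of the cartilage miRNA miR-140 the asterisk arm rose by 0.35 ± 0.10 and the other arm was not called (0.07 ± 0.09). miR-455, also listed as matrix-linked, was called higher (0.92), though not under every scaling.

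Among the falls were miRNAs of differentiated glia. miR-138, which is induced as Schwann cells and oligodendrocytes mature, was at -0.71, -0.35 and -0.24 on day 0 and at -2.10, -2.25 and -2.01 on day 7, a fall of 1.69 on the log2 scale (SE 0.17; 3.22-fold; adjusted p = 2.2e-06). miR-338, an intronic miRNA of Aatk that promotes myelination, was at 3.83, 4.12 and 4.48 against 2.98, 2.83 and 2.91, lower by 1.24 on the log2 scale (SE 0.16; 2.35-fold; adjusted p = 2.48e-05). The opposite arm miR-338* fell by 1.21 (SE 0.17), from -4.17, -3.78 and -3.56 to -4.98, -5.10 and -5.09. For each of the 3, every day 7 array lay below every day 0 array. miR-204 was lower by 0.59 on the log2 scale, which was not called under every scaling, and miR-211 was not called (-0.37 ± 0.30). Of the 5 members listed for myelinating glia 4 were lower, 3 of them under every scaling, beside 45.5% and 20.8% of all miRNAs tested. The median change of these 5 was -1.21, beside -0.36 over all members on all 6 arrays. The summed level of the 5 on the linear scale was 16.9 to 26.0 on the day 0 arrays and 8.93 to 9.82 on the day 7 arrays. Of the same list miR-138* and miR-219-5p were not tested for want of detection.

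miR-33, an intronic miRNA of Srebf2 that represses cholesterol export, fell by about as much as miR-138. It went from -5.32, -5.26 and -4.63 to -6.71, -6.70 and -6.87, a fall of 1.69 on the log2 scale (SE 0.19; 3.23-fold; adjusted p = 5.43e-06). miR-210, the miRNA induced by hypoxia, fell from -3.50, -3.16 and -3.06 to -3.89, -4.13 and -3.95 (-0.75 ± 0.15, adjusted p = 0.000634), under every scaling. Further falls under every scaling among the 12 largest were those of miR-32, miR-539, miR-26b and miR-125b*, the last being detected on 2 of 3 day 7 arrays.

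In some families known for high levels in differentiated cells every member was called lower with the scaling used here, which called 45.5% of all miRNAs tested lower and 20.8% under every scaling. The 8 members of let-7, which represses Lin28 and Ras genes and rises as cells differentiate, were all lower, by 0.55 to 1.01 on the log2 scale, and all 8 were also called lower with the median change set to 0. With quantile scaling and the deposited values let-7i turned positive (0.037 and 0.047) and let-7a, let-7e and let-7f lay between -0.10 and -0.04. Of these let-7b, let-7d and miR-98 were called lower under every scaling. let-7c, which belongs to this family, was at 3.99, 4.21 and 4.21 on day 0 and at 3.12, 3.12 and 3.13 on day 7. The summed let-7 level was 76.6 to 89.5 on day 0 and 48.0 to 48.5 on day 7. The let-7 members differ by few bases and their probes can share signal.

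The miR-99/100 and miR-125 miRNAs, which are transcribed with let-7 genes, were lower in 6 of 8 members, 4 of them under every scaling. These counts stand beside 45.5% and 20.8% of all miRNAs tested. miR-125b*, among the 4, was not detected on all day 7 arrays and entered through day 0, so its call adds nothing to them. miR-99a went from 2.95, 3.17 and 3.23 to 1.74, 1.64 and 1.71 (-1.42 ± 0.13; 2.67-fold; adjusted p = 8.75e-07). miR-100 went from 0.68, 0.96 and 1.00 to -0.36, -0.38 and -0.30 (-1.22 ± 0.14; 2.34-fold; adjusted p = 5.13e-06). The groups of both were well apart. miR-125b-5p, which took 7.22% to 8.35% of the summed signal on day 0 and 4.95% to 5.39% on day 7, fell by 1.00 on the log2 scale as given above.

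The miR-30 family acts in epithelial and muscle differentiation. All 7 members listed for it were lower, 5 of them under every scaling, with miR-30c at -0.82 ± 0.11. Not in this list are the minor arms miR-30c-1* and miR-30c-2*. miR-30c-1* was higher under every scaling (0.84 ± 0.29), and miR-30c-2* was lower, though not under every scaling (-0.93 ± 0.13). The miR-10 and miR-196 families are encoded in the Hox clusters and mark position along the body axis. All 5 of their members were lower as well, 4 of them under every scaling and 3 of them with the median change set to 0. Of all miRNAs tested, 45.5% were lower and 20.8% were lower under every scaling. miR-10b in this set fell from 0.51, 0.67 and 0.61 to -0.36, -0.38 and -0.43 (-0.98 ± 0.10, adjusted p = 2.06e-06). The 4 members listed for miR-148, miR-152 and miR-26, of which miR-26a and miR-26b are intronic in Ctdspl and Ctdsp1, all fell under every scaling. Their changes ran from -0.70 for miR-26a to -1.15 for miR-26b, and miR-148b-3p and miR-152 fell by 1.11 and 0.81 on the log2 scale. Of the 5 members of miR-23/24/27, 3 were lower and none under every scaling, and of the 4 miR-181 members 2 were lower, 1 of them (miR-181c, -0.76 ± 0.15) under every scaling.

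**Figure D4:**
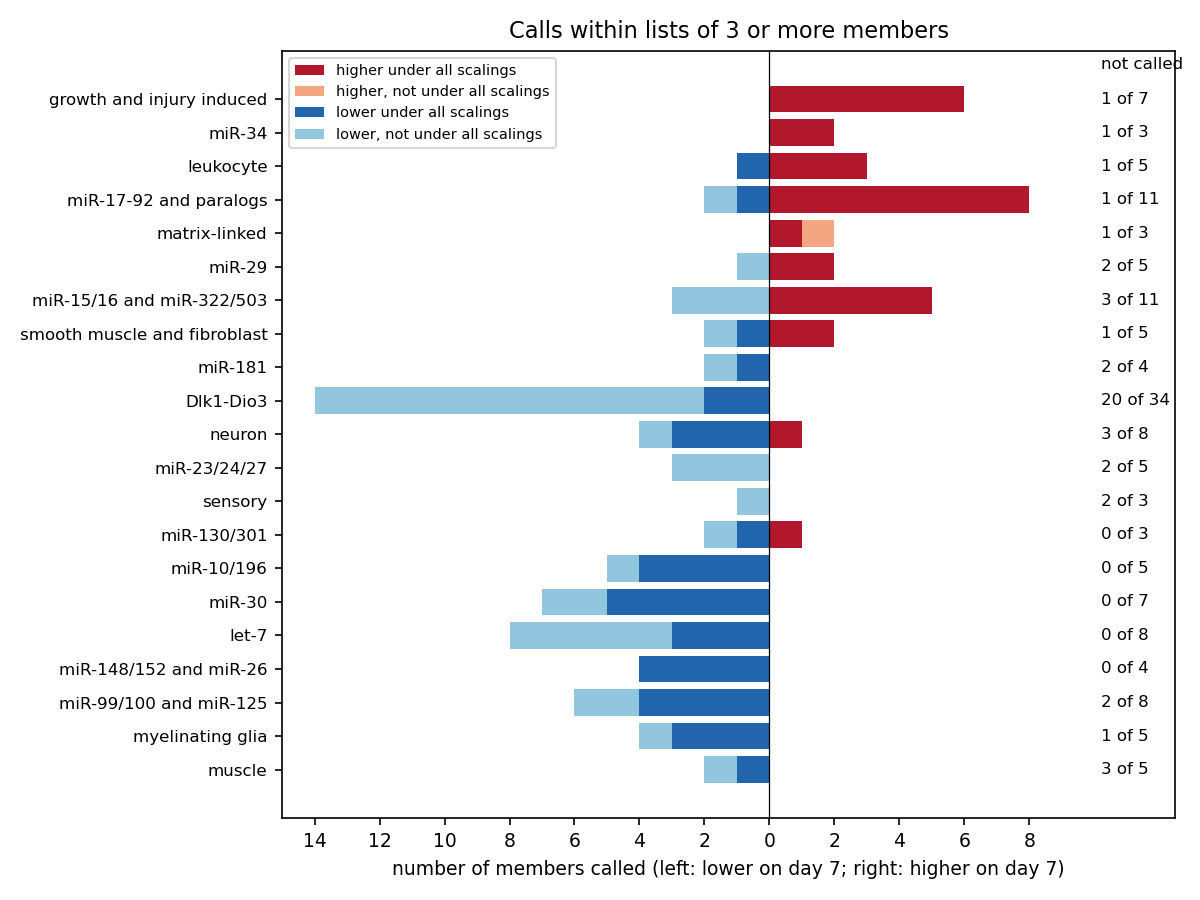
Number of members called lower (left of 0) or higher (right of 0) on day 7 in each list with at least 3 members, sorted by median change; dark bars count calls made under every scaling, pale bars calls made with the scaling used here but not under every scaling, and the column at the right gives how many of how many members were not called. The growth and injury list has 6 dark calls to the right, 3 of them for miRNAs detected on no day 0 array, and the list of miR-148, miR-152 and miR-26 has 4 dark calls to the left.

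Of 32 pairs of arms with both measured, 13 had both arms called in the same direction, 1 had them called in opposite directions, 13 had 1 arm called and 5 had none. Among all single miRNAs tested, 62.8% were called. Some pairs hold an arm not detected on all 6 arrays, such as miR-21* and miR-29a*. The difference between the arms on single arrays, in which a factor applied to a whole array cancels, did not overlap between the days in 20 pairs. Levels of single miRNAs did not overlap for 74.9% of those tested, so this count does not set the pairs apart. miR-338 and miR-338* both fell under every scaling, with a difference of the changes of -0.02 here, though 0.63 with quantile scaling and 0.71 with the deposited values, which treat levels on one array unequally. miR-9 and miR-9*, known from neurons, fell by 1.07 (SE 0.15) and 1.22 (SE 0.13) on the log2 scale. miR-340-5p was at -3.94, -3.77 and -3.55 on day 0 and at -3.54, -3.45 and -3.57 on day 7 (0.23 ± 0.11, not called), while miR-340-3p fell from -3.71, -3.47 and -3.37 to -4.38, -4.40 and -4.38 (-0.87 ± 0.11, adjusted p = 1.83e-05). The difference between these arms rose by 1.10, beside standard deviations of 0.06 on day 0 and 0.07 on day 7. miR-199a-5p gained 0.63 on miR-199a-3p, which was not called (-0.05 ± 0.10), and 0.25 with quantile scaling. miR-30c-1*, from the hairpin inside Nfyc, rose from -6.51, -5.83 and -5.37 to -4.87, -5.23 and -5.10 (0.84 ± 0.29, adjusted p = 0.0202), whereas miR-30c fell and miR-30c-2* of the other miR-30c hairpin was lower (-0.93 ± 0.13, not under every scaling). The call of miR-30c-1* was lost without day 0 replicate 1 or day 7 replicate 1 (0.53 and 0.74). With 3 arrays against 3, an exact permutation of such a difference cannot give a p below 0.1, and the hairpins named here were chosen with their values in view, so no test is given.

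Markers of tissue around or within the nerve varied between single samples. The muscle miRNA miR-1 was at 3.12 on day 0 replicate 1 but at -1.52 and -0.76 on the other two, against -3.66, -1.65 and -1.79 on day 7. Its fall (-2.65 ± 0.96, adjusted p = 0.0261) was lost without day 0 replicate 1 (-1.23, adjusted p = 0.106) and without day 7 replicate 1 (-2.00, adjusted p = 0.113), and it was not called with the percentile over all miRNAs, quantile scaling or the deposited values. miR-206 showed the same high value on day 0 replicate 1, at -0.64 beside -5.65 and -4.09, and was not called. The summed level of the 5 muscle members ran from 0.738 to 16.3 on day 0 and from 0.270 to 0.849 on day 7, and miR-208 was not tested for want of detection. Whether muscle tissue had a part in other differences was not tested. Unlike these, miR-499, an intronic miRNA of Myh7b, was even on day 0 (-3.80, -3.95 and -3.57) and fell to -4.90, -5.31 and -5.23 (-1.37 ± 0.18, adjusted p = 2.21e-05).

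The red cell miRNA miR-451 overlapped between the days (1.94, 1.65 and -0.52 against 0.08, 0.64 and 1.35) and was not called. Neither was miR-144 of the same transcript. Summed, the 2 ran from 0.734 to 3.98 on day 0 and from 1.09 to 2.61 on day 7. Of the 8 neuronal members 4 were lower and 1 higher, beside 45.5% and 17.3% of all miRNAs tested. The higher one was miR-7a, which rose from -4.64, -4.62 and -4.55 to -3.68, -3.46 and -3.62 (1.01 ± 0.10, adjusted p = 1.62e-06), and the lower ones included miR-218 (-0.98 ± 0.14), miR-9 and miR-9*. The neuronal sum was 1.78 to 2.40 on day 0 and 1.16 to 1.22 on day 7. The sensory cluster of miR-182, miR-183 and miR-96 gave 1 lower call of 3, with miR-182 not called (-0.36 ± 0.20). Of the 2 endothelial members 1 was lower, though not under every scaling. Epithelial miR-203 and miR-205 were not called, and the 5 miRNAs of the miR-200 family on the array were not tested for want of detection. Of the liver and pancreas list miR-192 and miR-194 were both lower, though not under every scaling, with sums of 0.0798 to 0.0884 on day 0 and 0.0406 to 0.0494 on day 7. miR-194 entered through day 0, so its call adds nothing to this list, and miR-122 and miR-375 were not tested.

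The imprinted Dlk1-Dio3 locus on chromosome 6 is the largest miRNA group on the array, and its median change was close to that of all miRNAs tested. Of its 34 members 14 were lower and none higher with the scaling used here, beside 45.5% and 17.3% of all miRNAs tested. The median was -0.28 beside -0.32 for all tested. With the median change set to 0, 12 were higher and 2 lower, beside 35.9% and 26.4% of all miRNAs tested. Only miR-434 and miR-539 were called under every scaling, by -0.60 ± 0.10 and -1.17 ± 0.22.

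Detection itself changed for a small set. The day 0 arrays detected 200 to 222 miRNAs and the day 7 arrays 220 to 234. The additive noise that the scanner software estimated was 4.29 to 5.51 on day 0 and 3.31 to 3.97 on day 7. Whether this had a part in the changes of detection was not tested. Of the 23 members detected on all day 7 arrays but not on all day 0 arrays, 8 were detected on no day 0 array (miR-132, miR-351, miR-31, miR-760-3p, miR-34c, miR-29a*, miR-130b and miR-21*). A miRNA of this kind entered the comparison through its day 7 values, so the 10 higher calls among the 23 are no support for a rise in general. In 4 of the 23 every day 7 array lay below every day 0 array. The changes of miR-29a* (0.06) and miR-760-3p (0.26) were not called. miR-21*, the minor arm of miR-21, was at -6.85, -7.06 and -6.75 on day 7, at least 1.58-fold higher, though its probes gave changes of both signs. For the other 84 members called under every scaling, all probes above the floor moved in the direction of the call. The 2 members detected on all day 0 arrays but not on all day 7 arrays were miR-125b* and miR-194. Both were lower, but they entered through day 0, so their calls are no support for a fall in general.

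By number of calls, day 7 was close to its neighbours day 4 and day 14 and far from day 1. Against day 4, which shares the day 7 arrays' scan day but not their slide, 1.3% of the 231 miRNAs tested were called higher and 4.76% lower (3 and 11). Against day 14 the shares were 9.09% and 4.76% (21 and 11), and 12 and 2 when only the 2 day 14 arrays on the day 7 slide were used. That split moved with the scaling, to 67 and 2 with the percentile over the members on all 6 arrays and to 10 and 72 without scaling. Against day 1 they were 26.4% and 31.6% (61 and 73). The day 1 arrays were alone on their slide and scan day, so slide, scan day and time cannot be told apart in that contrast. The day 4 arrays and the 2 day 14 arrays on the day 7 slide shared the day 7 scan day. The small counts moved with single arrays. Against day 4 the higher and lower counts became 1 and 5 without day 7 replicate 1, 3 and 4 without day 7 replicate 2, 1 and 8 without day 7 replicate 3, 1 and 4 without day 4 replicate 1, and 2 and 6 without day 4 replicate 3. Against day 14 they became 10 and 4, 8 and 3, and 10 and 3 without day 7 replicates 1, 2 and 3. They became 20 and 25, 27 and 6, and 11 and 4 without day 14 replicates 1, 2 and 3. With day 14 replicate 3 left out of the scaling as well, they were 24 and 4.

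The miRNAs that set day 7 apart from its neighbours were few. miR-30c-1* was higher on day 7 than on day 4 (1.26 ± 0.29, adjusted p = 0.0178) and than on day 14 (1.68 ± 0.29, adjusted p = 0.00292), under every scaling. miR-210 was lower than on day 4, by 0.71 on the log2 scale (SE 0.15, adjusted p = 0.0137), having stood at -3.24 ± 0.23 (SD, n = 3) on day 0, -3.28 ± 0.02 on day 4 and -3.99 ± 0.13 on day 7. miR-31 and miR-7a were higher than on day 14, by 0.88 ± 0.14 and 0.89 ± 0.10, and miR-181c, miR-181d and miR-181a were lower, all under every scaling. Against day 1, miR-21 was higher by 1.68 ± 0.12 and miR-31 by 2.60 ± 0.14, while miR-223 was lower by 0.99 on the log2 scale. The mean of miR-223 was highest on day 1, that of miR-31 on day 4 (-1.96 ± 0.19, beside -2.21 ± 0.08 on day 7), and those of miR-21 and miR-142-3p on day 7. For miR-21 the means of 5.01 ± 0.18 on day 4 and 5.17 ± 0.06 on day 7 were not called different, nor were those of miR-31.

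**Figure D5:**
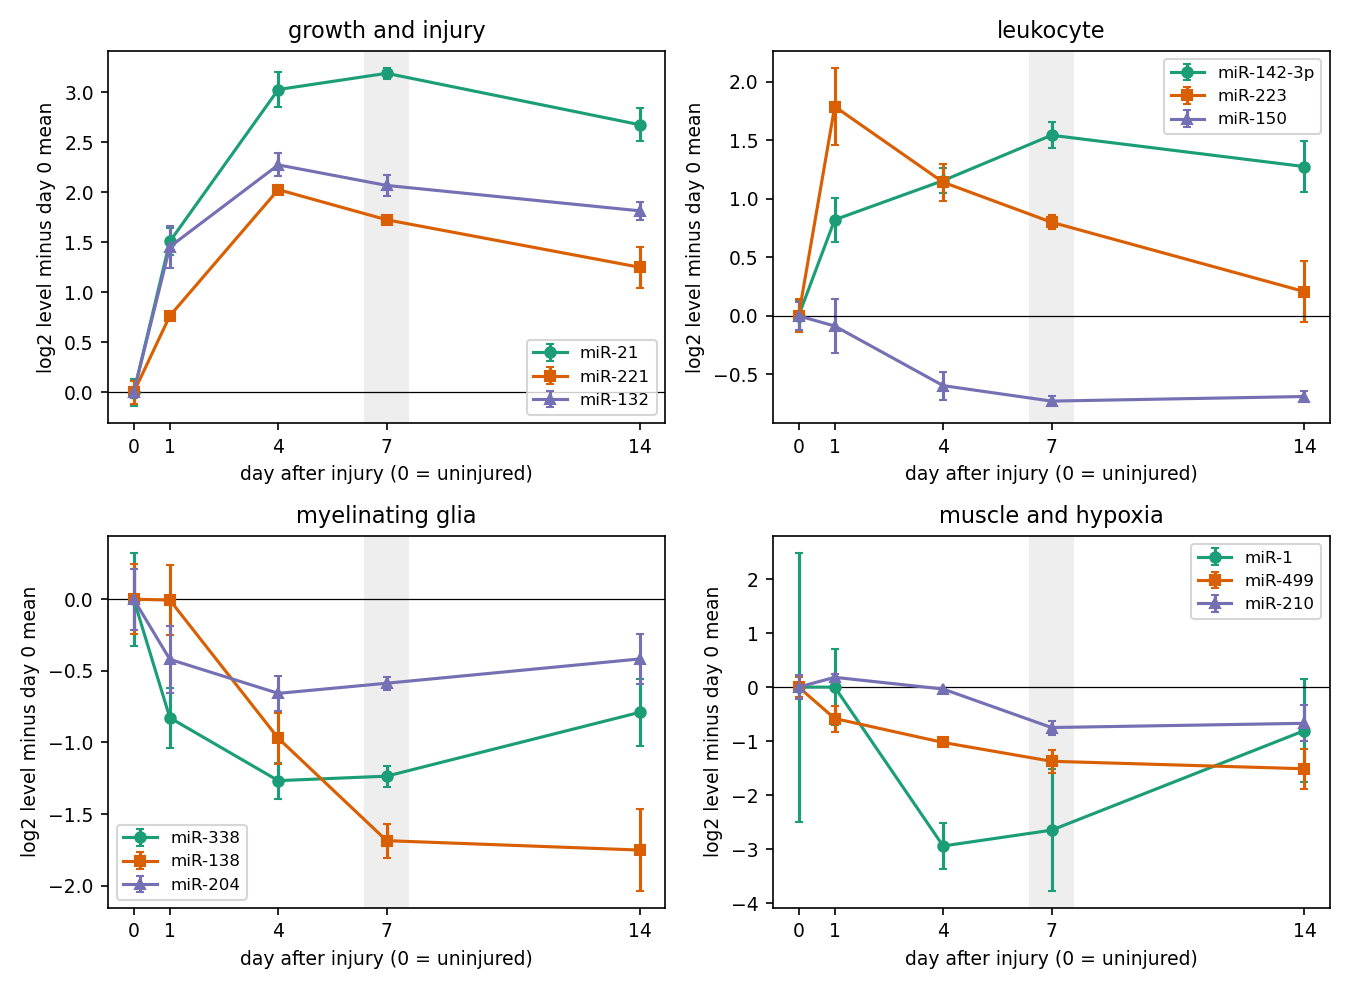
Mean log2 level minus the day 0 mean (vertical axis) over days 0, 1, 4, 7 and 14 (horizontal axis) for 3 miRNAs in each of 4 groups; bars are the standard deviation of 3 arrays and the grey band marks day 7. miR-223 peaks on day 1 and miR-142-3p on day 7, and the bar of miR-1 on day 0 spans the gap between replicate 1 and the other two.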

How the data were processed

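Total RNA (0.1 ug per sample, per the labels' protocols) was labelled with Cy3 and hybridised to 1-colour rat miRNA arrays. The deposited scanner files hold spot intensity values that the authors obtained with Agilent Feature Extraction 10.7.3.1, background-subtracted and not scaled between arrays, per the file headers. The deposited value table holds log2 values for the same arrays, with a median of 4.12 on each array but day 14 replicate 3 (0.834) and r of 0.965 to 0.991 with the log2 total gene signal of the same array. Its exact normalization is not given in the sources used here.

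Outlier and control spots were left out, the rest were averaged per probe and then per miRNA, values were scaled to the array's 75th percentile over the 164 miRNAs detected on all 15 arrays, and they were floored at 0.00362 before log2. The fit was limma 3.58.1 in R 4.3.3 with 1 mean per time point (10 residual degrees of freedom), Benjamini-Hochberg adjustment over 231 miRNAs detected on all 3 arrays of any time point, and a two-sided threshold of 0.05. The procedure was tested on simulated data. The number of arrays limits the precision.

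The members, the lists and the families were chosen with earlier results of these data known. Named miRNAs were the 12 largest rises and 12 largest falls with groups apart and called under every scaling, up to 4 members per list by adjusted p, a set of miRNAs named whatever their result (such as miR-206, miR-451, miR-140 and miR-182), the 5 largest calls each way against other times, and hairpins with both arms measured. Members of shared-seed families and of clusters were named after their values were seen. Array names were matched to RefSeq mature names by hand where arms were renamed. Gene positions are those of GRCr8, and a miRNA was placed inside a gene by interval alone. The scanner files hold no mean spot signal, so normexp, an alternative, was run on the median signal. Replicate numbers did not pair the samples: same-numbered day 0 and day 7 arrays had deviations with correlations of -0.87, -0.67 and -0.66.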

Additional observations from a re-analysis of the deposited data

Results flagged for a closer look

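Day 7 differed from another time point of the same series by a direct contrast in the limma fit for the following miRNAs, up to the 5 largest calls each way in each contrast. All contrasts use the same 3 day 7 arrays.

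Against day 4, miR-30c-1*, miR-455 and miR-335 were higher on day 7, by 1.26, 0.56 and 0.51 on the log2 scale. miR-21* and miR-466b were lower, with differences of -1.02 and -0.92. miR-672, miR-878 and miR-743a had fitted differences of -1.19, -1.25 and -0.99, or 2.29-fold, 2.37-fold and 1.98-fold lower. They were detected on all 3 day 4 arrays and on no day 7 array. These 3 are not among the 221 members. miR-30c-1*, miR-335, miR-466b, miR-878 and miR-743a were called under every scaling. miR-21* was near the floor, and its probes gave changes of both signs against day 0.

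Against day 14, miR-30c-1*, miR-327, miR-551b, miR-21* and miR-137 were higher on day 7, by 1.68, 1.65, 1.19, 0.99 and 0.93. miR-181c, miR-674-5p, miR-181d, miR-181a and miR-455 were lower, with differences of -0.84, -0.71, -0.55, -0.52 and -0.49. Of these 10, miR-30c-1* and the 3 miR-181 members were called under every scaling. The miR-181 family acts in lymphocyte development. miR-21*, miR-551b and miR-327 were each detected on 1 of 3 day 14 arrays, and miR-137 on 2 of 3.

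Against day 1, miR-31, miR-21, miR-542-3p and miR-34b were higher on day 7, by 2.60, 1.68, 1.64 and 1.34. miR-377 of the Dlk1-Dio3 locus, with a fitted difference of 1.33, was detected on no day 1 array, which makes day 7 at least 2.40-fold higher. The muscle miRNAs miR-1, miR-133b and miR-133a were lower, with differences of -2.65, -2.53 and -1.93, as were the red cell miRNA miR-144 (-2.12) and miR-188 (-2.09), which is not among the members. Of these 10, all but miR-1, miR-133a and miR-144 were called under every scaling. Levels of the muscle and red cell miRNAs also varied widely between single day 0 arrays, and the share of the tissues they mark in these differences was not tested.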

How the results depend on the processing

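The number of calls, more than the leading miRNAs, moved with the processing. Against day 0, 40 higher and 105 lower calls became 82 and 63 when the percentile covered all miRNAs and 83 and 61 with the median change set to 0, and the lower calls became 61 with the deposited values. With single day 0 or day 7 arrays left out they ran from 34 to 41 higher and from 96 to 111 lower. Slide and injury cannot be told apart, 3 arrays a group limit the precision, and values near the floor have no order.

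Against day 4 the 3 higher calls became 8 with the deposited values, 24 without scaling, 11 with the percentile over all miRNAs, 18 with quantile normalisation, 20 with only the 2 groups in the fit, 5 without day 14 replicate 3 in scaling and fit, 8 with the array median over members on all 6 arrays as the scale and 1 with only miRNAs detected on all 15 arrays, and ran from 1 to 3 with single arrays left out. With the normexp background limma called 0 higher, with 9 at an unadjusted p under 0.05. The 11 lower calls became 7 without the detection filter, 7 without scaling, 1 with normexp, 4 with only miRNAs on all 15 arrays and 54 with only the 2 groups, and ran from 4 to 9 with single arrays left out.

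Against day 14 the 21 higher calls became 11 with the deposited values, 10 without scaling, 13 with normexp, 7 with only miRNAs on all 15 arrays, 9 with the total gene signal and 12 within the shared slide, but 67 with the percentile over members on all 6 arrays and 43 with their median as the scale, and ran from 8 to 27 with single arrays left out. The 11 lower calls became 72 without scaling, 33 with the percentile over all miRNAs, 21 with quantile normalisation, 2 with the percentile over members on all 6 arrays, 2 within the shared slide and 4 without day 14 replicate 3 in scaling and fit, and ran from 3 to 25 with single arrays left out. Against day 1 the 61 higher calls became 20 with normexp, 96 with the percentile over all miRNAs and 95 with the median of members on all 6 arrays as the scale, and the 73 lower calls became 37 without scaling.

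The fit used here did not treat the samples as paired by replicate number. With the replicate number as a block, 41 higher and 110 lower calls were made against day 0, and the lower calls against day 14 became 17. The block moved no other count by more than 1.5 times.

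Of the 92 miRNAs whose change against day 0 is given, 56 kept direction and side of the threshold under every alternative run. Over all 92, 49 of 1820 alternative values had the opposite sign. When the percentile covered all miRNAs these were miR-125a-5p (0.11), miR-16 (0.058), miR-182 (0.0058), miR-199a-3p (0.32), miR-206 (0.14), miR-212 (0.31), miR-34a (0.075) and miR-451 (0.033). With the median change set to 0 they were miR-125a-5p (0.12), miR-130a (0.0066), miR-16 (0.067), miR-182 (0.015), miR-199a-3p (0.32), miR-206 (0.15), miR-211 (0.00050), miR-212 (0.31), miR-34a (0.084) and miR-451 (0.042). Quantile normalisation gave let-7i (0.037), miR-130a (0.074), miR-16 (0.16), miR-199a-3p (0.41), miR-212 (0.062), miR-34a (0.28) and miR-451 (0.078). The deposited values gave let-7i (0.047), miR-130a (0.064), miR-16 (0.19), miR-199a-3p (0.30), miR-206 (1.04), miR-212 (0.20), miR-34a (0.24) and miR-451 (0.11). Without scaling these were miR-199a-3p (0.056) and miR-212 (0.047), and with the percentile over members on all 6 arrays miR-199a-3p (0.19), miR-206 (0.016) and miR-212 (0.18). Without day 14 replicate 3 in scaling and fit they were miR-199a-3p (0.11) and miR-212 (0.10), with the total gene signal miR-206 (0.44) and miR-212 (0.058), and with normexp miR-351 (-0.053). With single arrays left out, the change ran from -0.017 to 0.13 for miR-140, from -0.086 to 0.019 for miR-199a-3p, from -1.32 to 1.19 for miR-206, from -0.12 to 0.060 for miR-212 and from -1.10 to 0.13 for miR-451. Beyond scaling the cause was not tested. The percentile over members on all 6 arrays, the median set to 0 and the fits within the shared slide were chosen after seeing the data.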
